A study of Mus musculus with 47 samples.

Results

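The transcripts described here are those of Ccl2, Ccl7, Ccl8 and Ccl12, 4 CC chemokines known for attracting monocytes. They were picked by gene symbol, with no measured value in the rule, and are 4 of the 51912 genes listed for each library of bone marrow-derived macrophages (BMDMs). All 4 were followed through the 12 RNA-seq libraries of the series, and all 4 were found in the BMDM tables. They lie close together on the forward strand of mouse chromosome 11 (build mm10, 3 exons each in the GENCODE annotation): Ccl2 at chr11:82035577-82037452, Ccl7 at chr11:82045712-82047525, Ccl12 at chr11:82101845-82103399 and Ccl8 at chr11:82115185-82116799. The start of Ccl8, the farthest, lies 79.6 kb from that of Ccl2.

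CC chemokines are small secreted proteins that draw leukocytes along a gradient through receptors on the cell surface. Ccl2, Ccl7 and Ccl12 are ligands of Ccr2, the receptor by which inflammatory monocytes leave the bone marrow and enter tissue, whereas mouse Ccl8 acts mainly on Ccr8-bearing T cells. Macrophages make these chemokines when Tlr4 senses bacterial lipopolysaccharide (LPS), through NF-kB and through secreted type I interferon, and shift to another program under interleukin-4 (IL-4).

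The study asked how ZMYND8, a nuclear reader of histone marks, acts on inflammatory genes in macrophages. BMDMs came from C57BL/6 mice in which loxP sites flank exons 6 and 7 of Zmynd8, with no Cre in the WT group (Zmynd8 fl/fl littermates) and with a Lyz2-driven Cre, which deletes those exons in myeloid cells, in the Zmynd8 cKO group. Marrow cells were grown for 5 days in 20 ng/ml M-CSF and then left untreated (M0), given 100 ng/ml LPS for 6 h (M1) or given 20 ng/ml IL-4 for 6 h (M2). Each BMDM library was made from a mix of 3 biological replicates, so each genotype and treatment is 1 library with no replicate check; the age of the mice was not stated for these cultures. The other 6 libraries are labelled as Raw264.7, a mouse macrophage cell line. In the first 3, Zmynd8 was knocked out with a lentiviral guide (Zmynd8 KO), and the cells were left so or given back WT Zmynd8 or the D/E-A mutant, in which acidic residues are replaced by alanine. The labels give no treatment for these 3; the study's text places the WT Zmynd8 and D/E-A cells under LPS, and that of the Zmynd8 KO library is not stated. In the last 3, all given LPS, p65 (gene Rela, the NF-kB subunit) was knocked out, and the cells were left so or given back WT p65 or p65 carrying K122R.

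Of the 4 genes, 2 had an entry in the RefSeq promoter table (build GRCm38.p6), Ccl12 and Ccl8. Their promoters are shown because only these 2 had an entry. Each line gives the 250 bases before the transcription start, 5′ to 3′, for Ccl12 at chr11:82101595-82101844 and for Ccl8 at chr11:82114935-82115184, with TATAAA in capitals.
Ccl12: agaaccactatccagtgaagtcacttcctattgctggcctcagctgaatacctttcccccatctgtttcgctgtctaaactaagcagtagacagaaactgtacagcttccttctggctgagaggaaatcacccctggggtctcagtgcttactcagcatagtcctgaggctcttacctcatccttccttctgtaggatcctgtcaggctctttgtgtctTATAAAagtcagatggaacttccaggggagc
Ccl8: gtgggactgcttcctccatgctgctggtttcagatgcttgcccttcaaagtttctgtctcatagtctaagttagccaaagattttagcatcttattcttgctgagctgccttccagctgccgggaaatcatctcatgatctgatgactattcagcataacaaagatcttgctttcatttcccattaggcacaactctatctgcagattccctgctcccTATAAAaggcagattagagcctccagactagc
Both held TATAAA on the forward strand, starting 31 bases before the start in Ccl12 and 32 bases before it in Ccl8. Among the 32851 promoters of the table, 1.61% held TATAAA on that strand starting 27 to 34 bases before the start, a window set after both matches were seen. Of 6 motifs searched, on both strands, another 4 are reported here: the NF-kB consensus of 10 letters, GAAANNGAA for interferon response factors, TGANTCA for AP-1 and TTGCNNNAA for C/EBP. None of these 4 was found in either window, while 3.9%, 7.13%, 6.75% and 8.29% of all promoters held them, in that order. Ccl2 and Ccl7 were not analysed in this way. No stretch of 50 bases in the annotated transcripts of the 4 genes recurred in a transcript of another gene, so reads of that length can be told apart between them. Ccl2 lies inside Gm17268, a gene of the opposite strand, but shares no exonic base with it, and Gm17268 had 0 counts in all 6 BMDM libraries.

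The BMDM libraries held 22597408 to 28386612 counts and the libraries labelled Raw264.7 15127110 to 21042628 reads. Zmynd8 itself had 79.0 to 151 CPM (counts scaled to the library total) in BMDMs and was not lower past 1.2-fold in any cKO library; a count over the whole gene says nothing of the floxed exons, so the deletion is not checked by it. All 7 macrophage markers tested were present in every library. The 8 neutrophil markers summed to 2.33 to 4.22 CPM in the untreated and LPS BMDMs, but to 383 CPM in WT and 515 CPM in cKO BMDMs after IL-4. They reached 4440 to 10400 CPM in the 3 Zmynd8 libraries labelled Raw264.7 and at most 0.319 CPM in the 3 p65 libraries. The 4 monocyte markers summed to 892 to 1250 CPM in those Zmynd8 libraries and 12.9 to 14.9 CPM in the p65 libraries. Mast cell, dendritic cell, T cell and fibroblast markers summed to at most 14.9, 37.4, 13.1 and 12.2 CPM in any library, and B cell markers to 119 to 161 CPM in the Zmynd8 libraries and at most 17.2 CPM in the rest. Those Zmynd8 libraries also held 7109 to 8467 reads of Xist, the X-inactivation RNA, against 0 to 3 in the p65 libraries, and Ddx3y, a Y chromosome gene, had 0 or 1 read where it was listed in the first set against 400 to 1810 in the second. The 2 sets thus carry the same cell line label but not the same sex-linked transcripts, and Raw264.7 is a line from a male mouse. The part of these differences in the chemokine values was not tested.

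In untreated WT BMDMs, Ccl2 and Ccl7 were abundant and Ccl8 and Ccl12 were scarce. The levels were 608.4 TPM (transcript abundance corrected for length and library size) for Ccl2, 543.9 TPM for Ccl7, 58.4 TPM for Ccl12 and 8.15 TPM for Ccl8. Of the summed TPM of the 4 genes, Ccl2 made up 49.9%, Ccl7 44.6%, Ccl12 4.79% and Ccl8 0.669%. After LPS the make-up was different, and in the WT library Ccl8 came to 17.4% and Ccl12 to 14.9% of a sum that rose from 1219 to 4968 TPM. After IL-4 the sum was 95.49 TPM in WT cells and Ccl7, at 57.9%, stood above Ccl2, at 34.3%. In cKO cells the sum was higher than in WT under each treatment, at 1658, 6673 and 493.9 TPM for untreated, LPS and IL-4. The authors' transcript lengths for Ccl2 and Ccl12 differ between the IL-4 table (1096 and 537 bases) and the others (813 and 481 bases), so folds across treatments were taken from CPM.

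**Figure D1:**
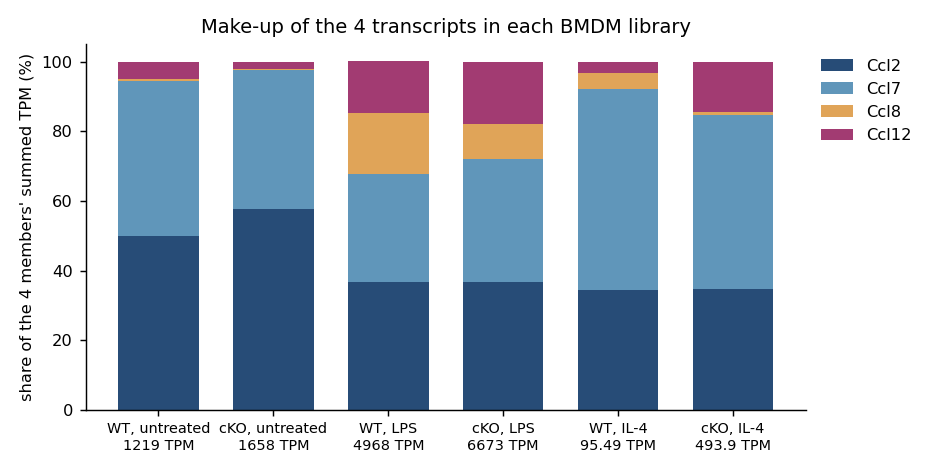
Stacked bars give each gene's share (%) of the summed TPM of Ccl2, Ccl7, Ccl8 and Ccl12 in each of the 6 BMDM libraries, with the sum printed under the bar. Ccl8 and Ccl12 take 32.2% of the sum in the WT LPS library and 5.46% in the untreated WT library.

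All 4 genes were higher after LPS in both genotypes. Among all genes tested 22.9% were higher by at least 1.2-fold in WT and 26.0% in cKO, and 13.8% and 16.2% by at least 2-fold; all 4 chemokines passed 2-fold in both. Ccl2, the main Ccr2 ligand, had 6423 counts (245.1 CPM) in untreated and 19081 counts (766.2 CPM) in LPS-treated WT cells. In cKO cells it had 10440 counts (462.0 CPM) and 22768 counts (971.7 CPM). Its LPS fold was 3.13 in WT (95% interval 3.04 to 3.22) and 2.1 in cKO (2.06 to 2.15), where the starting level was already higher. These intervals, exact Clopper-Pearson on the counts of the libraries compared, cover counting error only. Ccl7, which is built like Ccl2 and shares its receptor, rose from 5456 to 15549 counts in WT and from 6898 to 21097 counts in cKO. Its folds were 3.0 and 2.95, nearly the same in both genotypes, while the LPS fold of Ccl2 was smaller in cKO. With 1 library of each kind, this difference was not tested.

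Ccl8 and Ccl12 responded far more strongly to LPS than Ccl2 and Ccl7. Ccl8 went from 37 to 3949 counts in WT and from 21 to 2704 counts in cKO, folds of 112 (81.4 to 160) and 124 (81.1 to 201). With 1 CPM added these were log2 6.05 and 5.92, against 6.81 and 6.96 without. With so few counts before LPS, a genotype difference in this fold was not detectable at this depth. Ccl12, the mouse-specific Ccr2 ligand, went from 293 to 3713 counts in WT and from 171 to 5332 counts in cKO. Its fold was 13.3 (11.8 to 15.1) in WT and 30.1 (25.8 to 35.2) in cKO. These intervals cover counting error only, and the difference between the genotypes was not tested. Ccl8 ranked 53 from the top of 12813 genes in WT and 70 from the top of 12666 in cKO, and Ccl12 ranked 388 and 243. The median log2 change after LPS was 2.69 over the 4 genes and -0.70 over all genes in WT, and 3.24 and -0.65 in cKO. Scaling that centres all genes adds 0.68 (TMM) or 0.71 (median ratio) to every WT log2 value, so it enlarges these folds.

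After IL-4, Ccl2, Ccl7 and Ccl12 were far lower in WT cells, and Ccl12 went the other way in cKO cells. Of all genes tested in WT, 24.8% were lower by at least 1.2-fold and 8.81% by at least 2-fold; 4 chemokines passed the first and 3 the second. Ccl2 was at 363 counts (12.79 CPM) in WT and 1810 counts (69.27 CPM) in cKO after IL-4, which is 19.2-fold and 6.67-fold below the untreated libraries. Ccl7 was at 588 counts (20.71 CPM) and 2463 counts (94.26 CPM), 10.0-fold and 3.24-fold below. Ccl12 dropped in WT from 293 to 16 counts, a fold of 19.8 below (log2 -4.31, or -2.96 with 1 CPM added), but rose in cKO from 171 to 353 counts, a fold of 1.79 above (1.48 to 2.16). In cKO 46.8% of all genes were higher by at least 1.2-fold and 27.8% lower, and of the 4 genes 1 was higher and 2 lower, so the rise of Ccl12 alone does not stand out in rank, with 25.0% of genes above it. Ccl8 had few counts without LPS, with 21 counts in WT and 23 counts in cKO after IL-4 against 37 and 21 counts before. Its fold in cKO, 0.947, had a 95% interval from 0.501 to 1.8. In this bulk RNA, fewer cells of a type and less RNA per cell cannot be told apart, and the IL-4 libraries are those that held the neutrophil transcripts given above. The titles of the IL-4 libraries also carry sample indices from another range than those of the untreated and LPS libraries; what the index stands for is not stated, and it cannot be told apart from IL-4.

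**Figure D2:**
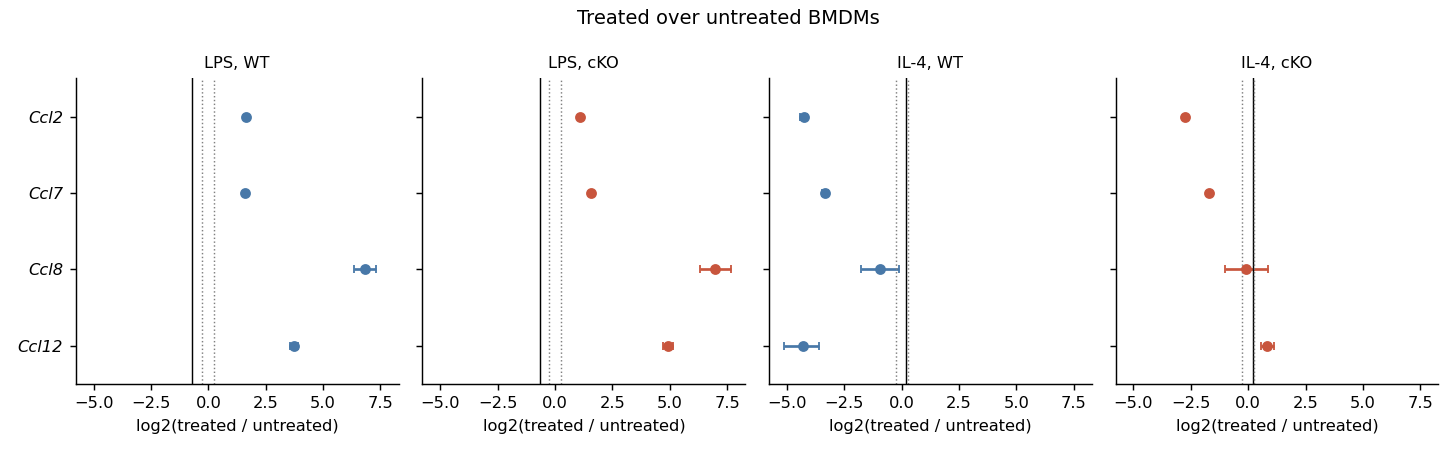
Points give the log2 ratio of treated over untreated BMDMs for each gene, in WT (blue) and cKO (red), with 95% counting intervals; the solid line is the median of all genes and the dotted lines mark 1.2-fold. All points lie right of the median after LPS, and Ccl12 lies at -4.31 in WT and 0.84 in cKO after IL-4.

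Set against WT, cKO BMDMs held more Ccl2 and Ccl7 under every treatment, and the gap was widest after IL-4. Untreated, Ccl2 was 1.89-fold higher (1.83 to 1.95) and Ccl7 1.47-fold (1.42 to 1.52). After LPS the folds were 1.27 (1.24 to 1.29) and 1.44 (1.41 to 1.47). After IL-4 they were 5.42 (4.84 to 6.08) and 4.55 (4.16 to 4.99), with 0.491% of all genes above Ccl2 and 0.672% above Ccl7. After LPS, 20.8% of all genes had a larger log2 ratio than Ccl2 and 11.1% a larger one than Ccl7. In the IL-4 pair 6 of the 8 neutrophil markers and 3 of the 4 monocyte markers were also higher in cKO and 0 lower. Among all genes 20.8% were higher and 16.8% lower. The neutrophil markers summed to 515 against 383 CPM and the monocyte markers to 201 against 87.7 CPM. Their part in the chemokine values was not tested.

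Ccl12 and Ccl8 did not follow that pattern. Ccl12 was lower in untreated cKO cells, at 171 counts against 293 counts (1.48-fold lower), higher after LPS, at 5332 against 3713 counts (1.53-fold higher), and far higher after IL-4, at 353 against 16 counts. This last fold, 24.0 (14.6 to 42.4), ranked 10 of 13245 genes. It rests on the 16 counts of the WT library, and 1 CPM added to both libraries lowered it from log2 4.58 to 3.21. Ccl8 was the only member lower in cKO after LPS, at 2704 against 3949 counts, 1.37-fold lower, with 8.86% of genes below it. Ccl8 was also lower in untreated cKO cells, at 21 against 37 counts, but the 95% interval of that fold, 0.366 to 1.15, included no change. After IL-4 it did not pass 1.2-fold, at 23 against 21 counts. The ratio of Ccl8 to Ccl12 in TPM was 1.17 in WT and 0.557 in cKO cells after LPS, and 1.46 and 0.0721 after IL-4.

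Counted by direction, 2 of the 4 genes were higher and 2 lower by at least 1.2-fold in untreated cKO cells, where 28.1% of all genes were higher and 31.7% lower. After LPS 3 were higher and 1 lower, against 27.1% and 17.5% of all genes. After IL-4 3 were higher and none lower, against 20.8% and 16.8% of all genes. At a fold of 2 only the 3 genes higher after IL-4 were left, against 4.51% of all genes. The median log2 ratio of the 4 genes was -0.01, 0.44 and 2.31 for untreated, LPS and IL-4, beside medians of -0.02, 0.04 and 0.01 over all genes. With 1 library of each kind, no test across replicates was possible for any of these folds. The 7 macrophage markers summed to less in cKO than in WT under each treatment, at 14200 against 18100 CPM untreated, 9400 against 13000 CPM after LPS and 14400 against 18400 CPM after IL-4. Most of that gap was Lyz2, the lysozyme gene whose locus carries the Cre in cKO mice, at 7200 against 11000 CPM, 2890 against 6900 CPM and 5240 against 8940 CPM. The other 6 markers summed to 7010 against 7100 CPM, 6500 against 6130 CPM and 9180 against 9440 CPM in the same order. Of the 7, 1 was higher and 5 lower in untreated cKO cells, 2 higher and 1 lower after LPS, and 2 higher and 3 lower after IL-4. Their part in the chemokine values was not tested.

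**Figure D3:**
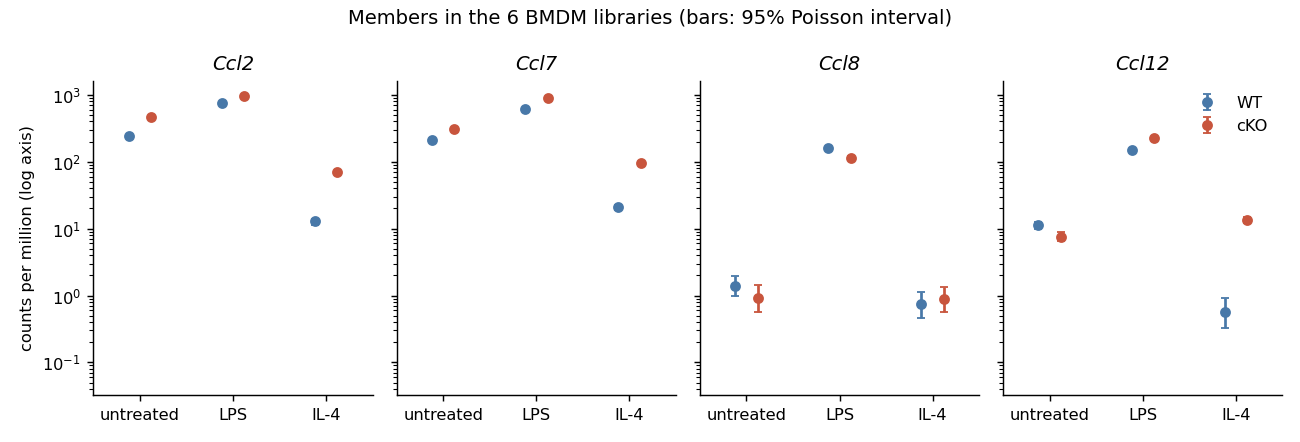
Each panel gives 1 gene in CPM on a log axis, in WT (blue) and cKO (red) BMDMs, with the 95% Poisson interval of the count. Ccl2 and Ccl7 in cKO lie above WT in all 3 treatments, and Ccl12 lies below WT in untreated cells and above it after LPS and IL-4.

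**Figure D4:**
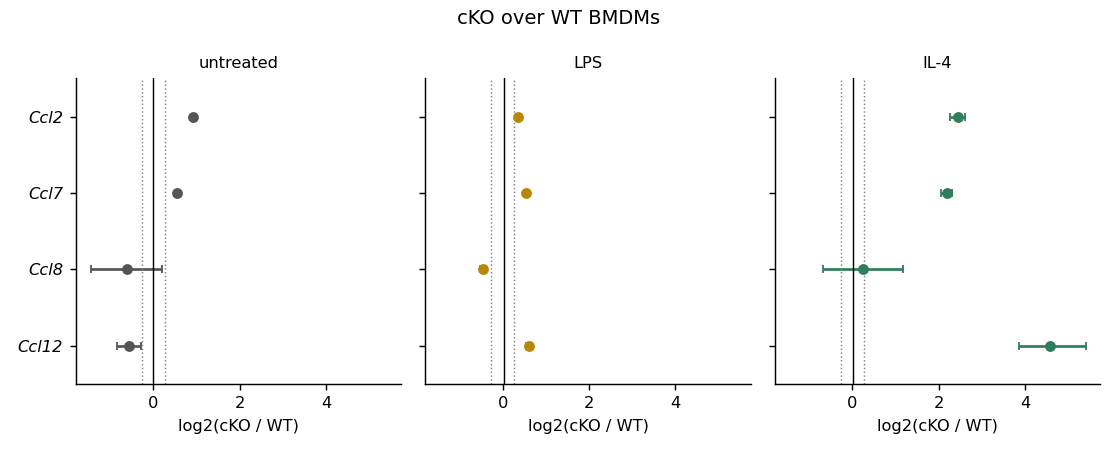
Points give the log2 ratio of cKO over WT BMDMs under each treatment with 95% counting intervals; the solid line is the median of all genes and the dotted lines mark 1.2-fold. Ccl12 moves from -0.56 in untreated cells to 4.58 after IL-4, and Ccl8 lies at -0.46 after LPS.

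Among all genes with a mean of at least 1 CPM, the pattern of Ccl7 over the 6 BMDM libraries was close to that of Ccl2 (Pearson r of log2(CPM + 1) = 0.992). Genes even closer to Ccl2 were Cd80, a T cell costimulatory ligand (0.998), Stra6l (0.997) and Vta1, an endosome-sorting protein (0.995). Pstpip1, a cytoskeletal adaptor, came first for Ccl7 (0.994), followed by Ccl2 and Cox17, a copper chaperone (0.989). For Ccl8 these were Gipr (1.00), Arid5a, which stabilizes inflammatory mRNAs (1.00), and Coch (0.999), and for Ccl12 Slamf9 (0.997), Mitd1 (0.989) and Gm15931 (0.988). Ccl8 shared less with Ccl2 (0.695) than with Ccl12 (0.911), and Ccl12 had 0.844 with Ccl2. Many genes were closer: Ccl8 ranked 827 for Ccl2 and 356 for Ccl12, and Ccl2 ranked 855 for Ccl12. These values describe 6 libraries that share their treatments, and 11803 genes were compared.

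The genes around the 4 chemokines did not share their levels. Ccl11, Ccl1, Asic2 and Tmem132e, the neighbours on chromosome 11, did not reach a mean of 10 counts in any BMDM comparison. Of the 14 other CC chemokines, 7, 8 and 9 could be compared between cKO and WT in untreated, LPS and IL-4 cells: 4 were higher and 2 lower, then 3 higher and 0 lower, then 6 higher and 0 lower. Among all genes 28.1%, 27.1% and 20.8% were higher and 31.7%, 17.5% and 16.8% lower, so the 3 of 8 after LPS lie near the share of all genes. Ccl5, a T cell and monocyte attractant, had 507 counts in cKO and 1414 in WT untreated cells (log2 -1.27), but 3628 and 1176 counts after IL-4 (1.74). Ccl3 (log2 1.74) and Ccl4 (1.37), macrophage inflammatory chemokines, were also higher in cKO after IL-4, as was the Ccr4 ligand Ccl17 (1.39).

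Of the receptors, Ccr2 was higher in cKO under each treatment. Ccr2 had 338 against 167 counts in untreated cells, 258 against 93 counts after LPS and 4215 against 1841 counts after IL-4, log2 ratios of 1.23, 1.56 and 1.32. After IL-4, Ccr2 itself was higher by log2 3.35 in WT and 3.43 in cKO, while its ligands Ccl2 and Ccl7 were lower in both. Its ligand Ccl12 was lower in WT (log2 -4.31) but higher in cKO (0.84). Ccr2 is also among the 4 monocyte markers, which summed to 7.4 and 16.0 CPM in untreated, 236 and 260 CPM in LPS and 87.7 and 201 CPM in IL-4 cells of WT and cKO. Ccr1 (log2 1.09) and Ccr3 (1.53) were higher in cKO after IL-4 too, while Ackr1 and Ackr2, which take up chemokines without signalling, did not reach the minimum count.

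Interferon response genes, like Ccl12, were lower in untreated cKO cells and higher in cKO cells after IL-4, but unlike Ccl12 none was higher after LPS. All 14 genes of that list, among them Ifit2 (log2 -3.14), Rsad2 (-2.66) and Ifi44 (-3.21), antiviral proteins, were lower in untreated cKO cells, where 31.7% of all genes were lower. After LPS 0 were higher and 2 lower, and after IL-4 13 were higher and 0 lower, with Cxcl10 at 2.14 and Ifit1 at 1.75. From untreated to IL-4, 12 of the 14 fell in WT and 14 of 14 rose in cKO, with medians of log2 -1.59 and 1.45, where 24.8% of all genes were lower in WT and 46.8% higher in cKO. Of the 22 genes of Tlr4, NF-kB and interferon signalling, 6 were higher and 2 lower in cKO after LPS, beside 27.1% and 17.5% of all genes, so the share that was higher lies near that of all genes. The only one past 2-fold was Ifnb1, the secreted interferon, at 28 counts in cKO and 61 counts in WT (2.05-fold lower), named after its value was seen. In untreated cells 4 of 21 tested were higher and 9 lower, beside 28.1% and 31.7% of all genes, while the IL-4 pair had 7 higher and 2 lower of 21, beside 20.8% and 16.8%. Among those of the untreated cells, Irf7 (-1.81) and Stat2 (-1.52), which carry the interferon signal, were lower in cKO and Cd14, the LPS co-receptor, was higher (1.02). Of 9 regulators of mRNA decay and NF-kB restraint, 0, 5 and 4 were higher and 3, 0 and 1 lower in untreated, LPS and IL-4 cells, beside the shares of all genes given above for the other CC chemokines. Nfkbiz, a nuclear IkB protein, had 985 counts in cKO and 378 in WT after IL-4. The LPS marker genes Nos2 (2.54), Tnf (1.73) and Il1b (1.63) were higher in cKO after IL-4, as all 5 of that list were, and 4 of 5 were higher after LPS, where 20.8% and 27.1% of all genes were higher. Of the 5 IL-4 markers after IL-4, 1 was higher and 3 were lower, beside 20.8% and 16.8% of all genes.

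In the 3 Zmynd8 libraries labelled Raw264.7 all 4 chemokines were detected, and all 4 were higher by at least 1.2-fold in Zmynd8 KO and with D/E-A than with WT Zmynd8, although the counting interval of Ccl8 in Zmynd8 KO included no change. Ccl2 had 1503 reads with WT Zmynd8, 3103 reads in Zmynd8 KO and 3260 reads with D/E-A. Ccl7 had 3479, 5233 and 4441 reads, Ccl12 793, 1513 and 921 reads, and Ccl8 71, 105 and 148 reads, in the same order. On the authors' normalized values, Zmynd8 KO over WT Zmynd8 was 1.9-fold for Ccl2 (1.78 to 2.02), 1.38-fold for Ccl7 (1.32 to 1.44), 1.75-fold for Ccl12 (1.61 to 1.91) and 1.36-fold for Ccl8 (0.997 to 1.86). Since the treatment of the Zmynd8 KO library is not stated, a difference in treatment cannot be told apart from the genotype in that pair. Of all genes tested in it 34.9% were higher by at least 1.2-fold. D/E-A over WT Zmynd8 was 2.27-fold for Ccl2 (2.14 to 2.42) and 2.18-fold for Ccl8 (1.63 to 2.94), but 1.34-fold for Ccl7 and 1.22-fold for Ccl12, where 36.8% of the 12771 genes of that shorter table were higher. The value of Ccl12 fell to a log2 of 0.25, just under 1.2-fold, when library totals were used in place of the authors' scaling.

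Those pairs share the WT Zmynd8 library, and other transcripts moved with the chemokines. The 8 neutrophil markers summed to 10400 CPM with WT Zmynd8, 6990 CPM in Zmynd8 KO and 4440 CPM with D/E-A, and 5 of 8 and 8 of 8 were lower than with WT Zmynd8. The 7 macrophage markers summed to 4290, 5640 and 8680 CPM, with 7 of 7 higher in both. Of 4 dendritic cell markers tested, 1 was higher and 1 lower in Zmynd8 KO, and 0 and 4 with D/E-A. For 4 T cell markers these counts were 0 and 3, then 0 and 1. For 4 B cell markers they were 1 and 3, then 1 and 1, and for 4 monocyte markers 2 and 0, then 2 and 2. Among all genes 34.9% were higher and 28.4% lower in Zmynd8 KO, and 36.8% and 36.0% with D/E-A. Entries of 18S ribosomal RNA took 17.1% of the reads with WT Zmynd8, 13.8% in Zmynd8 KO and 8.17% with D/E-A, against 0.228% to 0.636% in the p65 libraries. The part of these transcripts in the chemokine values was not tested. Zmynd8 had 485 reads with WT Zmynd8, 497 with D/E-A and 121 in the Zmynd8 KO. Of the 5 LPS marker genes, 1 was higher and 1 lower in Zmynd8 KO, and 1 higher and 2 lower with D/E-A, where 28.4% and 36.0% of all genes were lower. The higher one was Nos2, the nitric oxide synthase of activated macrophages, which had 9199, 25371 and 49114 reads with WT Zmynd8, in Zmynd8 KO and with D/E-A. Lower in both was Il12b, a subunit of interleukin-12, with 2800, 2046 and 1448 reads, and Tnf was lower with D/E-A, at 5470 against 7739 reads; these were named after their values were seen. Of the 22 signalling genes, 12 were higher and 3 lower in Zmynd8 KO, and 14 and 3 with D/E-A. For the 9 regulators of mRNA decay and NF-kB restraint these counts were 6 and 0, then 8 and 0. For the 14 interferon response genes they were 7 and 0, then 9 and 2. Of the other CC chemokines, 2 of 9 tested were higher and 3 lower in Zmynd8 KO, and 1 of 8 higher and 4 lower with D/E-A. Among the lower was Ccl24, an eosinophil attractant, with 1962, 925 and 512 reads.

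In the LPS-treated p65 libraries the make-up of the 4 transcripts was another. Per kilobase of transcript, Ccl2 took 86.2% to 88.1% and Ccl7 11.2% to 13.5% of the sum, Ccl12 had 6 to 8 reads and Ccl8 was not listed. By contrast, Ccl7 stood above Ccl2 per kilobase in the 3 Zmynd8 libraries, by 1.38 to 2.35 times. Ccl2 had 1855 reads with WT p65, 1324 reads with K122R and 3193 reads in p65 KO. Ccl7 had 266, 166 and 491 reads. Both were thus lower with K122R and higher in p65 KO than with WT p65.

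K122R over WT p65 was 0.742 for Ccl2 (0.691 to 0.796) and 0.648 for Ccl7 (0.531 to 0.79), where 28.7% of all genes were lower by at least 1.2-fold. In the p65 KO library, Ccl2 was 1.78-fold higher (1.68 to 1.89) and Ccl7 1.91-fold (1.64 to 2.23), where 19.6% of all genes were higher. In the same pair 3 of the 5 LPS marker genes were lower and 0 higher, where 19.6% of all genes were lower. Il6, an NF-kB target, was among them, with 1213 against 2694 reads (log2 -1.10). Ccr1 was higher in p65 KO (log2 1.42) and also with K122R (1.35), the pair in which both chemokines were lower. Of 3 receptors tested, 3 were higher in p65 KO and 2 with K122R, and 0 were lower. Rela itself had 1601 reads with WT p65, 765 in p65 KO and 5850 with K122R. The RNA of the p65 KO library thus does not by itself show the knockout, and the K122R library carried more Rela RNA than the WT p65 library (log2 1.93). Zmynd8 was lower with K122R, at 1070 against 1826 reads (log2 -0.72), and its part in the chemokine values was not tested. Tlr4 (log2 1.33), Dusp1, a MAP kinase phosphatase (1.53), and Nos2 (1.56) were higher with K122R while both chemokines were lower. Of the lists these come from, 13 of 22 signalling genes were higher and 4 lower, 7 of 9 regulators of mRNA decay and NF-kB restraint higher and 0 lower, and 3 of 5 LPS marker genes higher and 1 lower, where 26.6% of all genes were higher. Ccl12 was below the minimum of 10 in these pairs and was not compared. The p65 libraries had near-zero neutrophil markers and 1400 to 1530 CPM of macrophage markers, highest in p65 KO, where 1 of 6 tested was higher and 0 lower. Fibroblast markers summed to 8.53 CPM with K122R, 9.06 CPM with WT p65 and 12.2 CPM in p65 KO, the order of Ccl2 and Ccl7, but of the 3 tested 0 were higher and 0 lower with K122R, and 2 higher and 1 lower in p65 KO. The sums of dendritic cell markers (20.2 to 27.8 CPM) and monocyte markers (12.9 to 14.9 CPM) had another order, lowest with WT p65 and highest in p65 KO. Their part in the chemokine values was not tested.

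**Figure D5:**
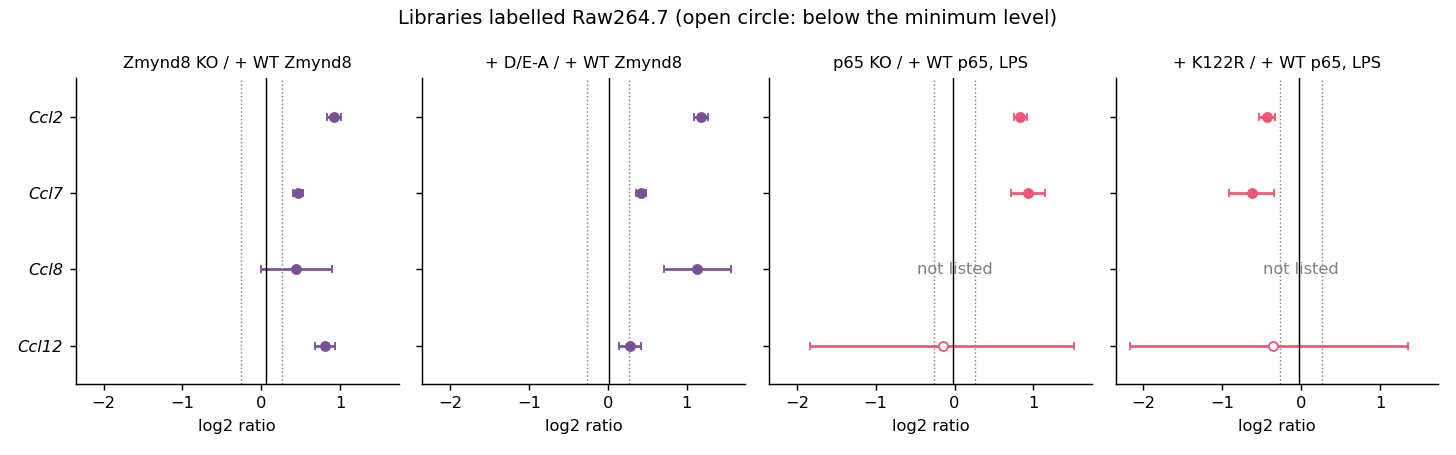
Points give log2 ratios within each pair of libraries labelled Raw264.7 with 95% counting intervals; open circles mark genes under the minimum level, the solid line the median of all genes and the dotted lines 1.2-fold. Ccl2 and Ccl7 lie right of the 1.2-fold line in Zmynd8 KO, D/E-A and p65 KO and left of it with K122R.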

How the data were processed

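RNA-seq of 12 libraries was analysed. Another 35 samples of the series (ChIP-seq and ATAC-seq) were not used here. Per the study's methods, polyadenylated RNA was aligned by the authors to the mm10 transcriptome with TopHat. The submitters' processing notes list CASAVA 1.4 and Bowtie 0.12.2. The deposited BMDM tables give estimated counts and TPM per gene; the counter is not given in the sources used here. Estimated counts were rounded and divided by library totals (CPM), and 431, 431 and 2 rows that named no gene were left out. The tables of the libraries labelled Raw264.7 hold a deposited signal, which the authors made by dividing gene reads by a factor set per library and table. Whole reads were recovered from it (at least 99.9947% of the lower values within 0.02 of a whole read), and folds were taken within a table. For the WT Zmynd8 column of the D/E-A table, which lists no low values, the read size came from the same library's other table.

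With 1 library of each kind no count test was run, and the planned settings changed the scaling, filter or fold. Genes with a mean of at least 10 entered, and a change was counted from 1.2-fold, the fold of the study's methods. A count of 0 was set to 3 counts. Intervals are 95% Clopper-Pearson and cover counting error only. TMM factors came from edgeR 4.0.16 in R 4.3.3; the rest was done in Python 3.11.15 with scipy 1.17.1. The fold and interval code was tested on simulated counts. The chemokines and gene lists were chosen with earlier results of these data known. Named were the 4 chemokines, Zmynd8 and Rela, up to 4 genes for each list and comparison by size of fold among those past 2-fold with a mean of at least 100, and the 3 genes most like each chemokine; marker genes checked the cell types. Some genes that this rule would name, and 1 motif, are not reported here. In the deposited tables, 2 unlabelled columns of values and the authors' own fold, p-value and significance columns were not used.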

Additional observations from a re-analysis of the deposited data

Results flagged for a closer look

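Ccl12 was marked 3 times because libraries of different groups moved in opposite directions under the same contrast; none of these differences was tested. The cKO over WT log2 ratio of Ccl12 was -0.56 in untreated and 0.61 in LPS-treated BMDMs, a difference of 1.17. It was -0.56 in untreated and 4.58 in IL-4-treated BMDMs, a difference of 5.15. Put the other way, the IL-4 over untreated log2 ratio of Ccl12 was -4.31 in WT and 0.84 in cKO, again a difference of 5.15, since both use the same 4 libraries. The WT IL-4 library held 16 counts of Ccl12, with a 95% Poisson interval from 9.145 to 25.98 counts. The 14 interferon response genes had medians of log2 -1.81 untreated, -0.07 after LPS and 1.25 after IL-4 in the same cKO over WT contrasts. After LPS 0 of them were higher and 2 lower, unlike Ccl12.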

How the results depend on the processing

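A fold of 2 in place of 1.2 left 0 genes higher and 0 lower in cKO over WT for untreated and LPS cells, 0 higher for IL-4 over untreated in cKO, 2 higher for D/E-A, 0 higher for Zmynd8 KO and p65 KO, and 0 lower for K122R. A mean of at least 50 counts left 1 gene lower in untreated cKO cells, since Ccl8 no longer entered. The other 136 of 146 counts stayed within 1.5 times. Of 154 single fold changes under other scalings 108 stayed inside their counting interval, and 46 moved beyond it with the same sign. Only 3 crossed the 1.2-fold line: Ccl8 for IL-4 over untreated in cKO with TMM (-0.27) and median ratio (-0.26), and Ccl12 for D/E-A with library totals. The largest shift of the median of all genes was 0.71, for LPS over untreated in WT with median ratio scaling, where the share of higher genes among those called went from 26.1% to 50.3%; in cKO it went from 29.7% to 50.5%. For IL-4 over untreated it went from 64.0% to 50.9% in WT and from 62.7% to 51.4% in cKO, for untreated cKO over WT from 47.1% to 23.8% with deposited TPM, and for K122R from 48.1% to 31.3% with library totals. Adding 1 CPM lowered the log2 ratio of Ccl12 in cKO over WT after IL-4 from 4.58 to 3.21. WT and cKO BMDMs share their treatments, but no analysis paired by treatment was run. Because each condition is 1 library, no library could be left out of a comparison. Depth limits Ccl8 outside LPS and Ccl12 in the WT IL-4 and the p65 libraries.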
